A study of Mus musculus with 3 samples.

Results

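EBF1, the transcription factor that sets up the B lineage, was compared with the substituted protein EBF1E271A at the genomic regions where only the substituted protein passed a scaled count of 100. These regions were chosen by that measurement: the EBF1E271A value was above 100 and the EBF1wt value at or below 100 in 339 of 4116 deposited regions (8.24%). Overlapping regions were merged, which gave 197 of 2121 loci (9.29%). Every ratio of EBF1E271A over EBF1wt among them is above 1 because of this rule, so ratios describe how far above 1 each locus lay and test nothing. The label of the group holds as a statement about the threshold; without replicates and without an input value per region it does not show sites bound by EBF1E271A alone.

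The values come from chromatin immunoprecipitation and sequencing (ChIP-seq) in pro-B cells grown from c-kit+ progenitors of C57BL/6 Ebf1-/- fetal liver (E16.5). All libraries came from cells that carried retroviruses for rtTA-Advanced with tdTomato and for a doxycycline-controlled FLAG-NICD1, the intracellular domain of Notch1, and that had received doxycycline at 1 µg/ml for 6 hours. The EBF1wt library came from cells with a StrepFLAG-EBF1wt virus, the EBF1E271A library from cells with the StrepFLAG-EBF1E271A virus, and the input library from EBF1wt cells, 1 library each. EBF1 was therefore supplied by a virus in every sample. Cells of BJAB, a human B cell lymphoma line, were added as a spike-in to scale the libraries, at 10 mouse cells to 1 human cell. Cells had been differentiated on OP9 feeder cells, which were left out during doxycycline treatment. The sources used here do not give the number of embryos or cultures pooled.

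EBF1 binds DNA as a dimer, and its consensus is a palindrome, CCCNNGGG with a T before and an A after it. It opens and marks regulatory regions of B cell genes and holds back the programmes of other blood lineages. NICD1 acts through the DNA-binding protein RBPJ, whose core site is TGGGAA, and strong Notch signals direct lymphoid progenitors to the T lineage.

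The sequences that the substituted protein's loci share with promoters are shown first, because they can be read against both binding sites and were not used to choose the loci. RefSeq promoter windows of GRCm38.p6, from 250 bases before to 50 after a start site, were covered over at least 150 bases at 11 of the 197 loci, at 11 genes. Each line below gives only the bases before the start site that the region covers, read along the gene's strand. Capitals mark CCCNNGGG where it occurs, and otherwise the 10 bases with the fewest mismatches to the full palindrome. The 4 promoters of highest ratio are shown, with that of Ptpn6 as a gene of a preset list: Klk4 encodes a kallikrein protease, Ints3 a subunit of the Integrator complex, Aldh6a1 a mitochondrial dehydrogenase of valine breakdown, Ifitm1 an interferon-induced membrane protein and Ptpn6 the phosphatase SHP-1, which restrains B cell receptor signals.
Klk4, chr7:43880957-43881159, plus strand: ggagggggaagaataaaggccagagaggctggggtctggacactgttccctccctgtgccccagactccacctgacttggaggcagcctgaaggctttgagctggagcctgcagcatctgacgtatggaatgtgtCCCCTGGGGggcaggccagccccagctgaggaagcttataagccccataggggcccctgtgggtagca
Ints3, chr3:90433637-90433773, minus strand: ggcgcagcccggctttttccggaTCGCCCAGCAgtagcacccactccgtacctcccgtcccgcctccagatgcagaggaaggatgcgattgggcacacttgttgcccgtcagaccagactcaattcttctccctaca
Aldh6a1, chr12:84451025-84451258, minus strand: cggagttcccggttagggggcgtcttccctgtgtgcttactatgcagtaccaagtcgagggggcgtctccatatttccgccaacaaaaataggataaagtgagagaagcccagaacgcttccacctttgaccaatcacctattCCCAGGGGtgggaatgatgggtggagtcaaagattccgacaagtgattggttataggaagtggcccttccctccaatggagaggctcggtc
Ifitm1, chr7:140967864-140968075, plus strand: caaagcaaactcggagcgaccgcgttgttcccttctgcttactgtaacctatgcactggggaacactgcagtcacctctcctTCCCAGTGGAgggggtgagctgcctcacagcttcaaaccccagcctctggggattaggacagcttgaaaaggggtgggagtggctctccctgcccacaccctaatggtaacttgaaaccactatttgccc
Ptpn6, chr6:124738710-124738886, minus strand: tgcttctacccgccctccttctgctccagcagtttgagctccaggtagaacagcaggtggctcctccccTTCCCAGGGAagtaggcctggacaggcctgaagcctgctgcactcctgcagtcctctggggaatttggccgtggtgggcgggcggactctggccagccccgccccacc
For comparison, a pair of promoters with the full palindrome, marked in capitals, is taken from regions above 100 in both libraries. They belong to Mphosph8, a chromatin protein gene, and Wdr93, which encodes a WD-repeat protein, and they were taken from those of highest mean value.
Mphosph8, chr14:56668010-56668247, plus strand: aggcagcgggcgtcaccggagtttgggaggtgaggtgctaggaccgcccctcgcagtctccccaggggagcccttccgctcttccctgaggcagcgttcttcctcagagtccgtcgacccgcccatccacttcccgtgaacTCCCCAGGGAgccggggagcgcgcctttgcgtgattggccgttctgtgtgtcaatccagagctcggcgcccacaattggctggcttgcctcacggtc
Wdr93, chr7:79742899-79743148, plus strand: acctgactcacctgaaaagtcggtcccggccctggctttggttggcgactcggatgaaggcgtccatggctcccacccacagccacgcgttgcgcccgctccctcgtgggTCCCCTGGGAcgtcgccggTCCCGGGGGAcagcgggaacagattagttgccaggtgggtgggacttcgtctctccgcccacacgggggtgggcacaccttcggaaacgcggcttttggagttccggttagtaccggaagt

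None of the 11 promoters held the full EBF1 palindrome, whereas most came within 1 mismatch of it. The full palindrome was found in 0 of the 11 whole promoter windows (exact binomial 95% interval 0 to 28.5%), against 33 of 93 genes whose promoters were covered by regions above 100 in both libraries (35.5%, 25.8 to 46.1%). It was found in 10 of 38 covered by regions above 100 in EBF1wt alone (26.3%, 13.4 to 43.1%), and in 0.904% of all 32851 windows in the table. Among promoters of regions above 100 in both whose mean value was no higher than the highest in the EBF1E271A-only group, 9 of 37 held it (24.3%, 11.8 to 41.2%). The upper bound of 28.5% for the 11 promoters lay below the share in the 93 promoters and above the shares in the 38 and the 37, and the differences were not tested. With at most 1 mismatch in its 8 fixed bases, the palindrome was found in 8 of 11 (72.7%), 79 of 93 (84.9%), 31 of the 37 with lower mean values (83.8%), 29 of 38 (76.3%) and 5422 of all 32851 windows. For the 11 promoters the interval of this share ran from 39.0 to 94%. The shorter CCCNNGGG, which lies inside the palindrome, was found in 4 of 11 (36.4%, 10.9 to 69.2%), 69 of 93 (74.2%), 25 of 37 (67.6%), 23 of 38 (60.5%) and 13.7% of all windows. That interval for the 11 promoters holds the shares of the 37, of the 38 and of all windows.

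The RBPJ core was found in 5 of the 11 promoters (45.5%, 16.7 to 76.6%), against 25.6% of all windows, a share inside that interval. TGGGAA was searched on both strands and can overlap an EBF1 palindrome that an A follows. It was found in 29 of 93 promoters of regions above 100 in both (31.2%) and in 10 of 38 of those above 100 in EBF1wt alone (26.3%). Among the promoters of regions above 100 in both with lower mean values it was found in 14 of 37 (37.8%). Each of these shares lies inside the interval for the 11 promoters. In the Aldh6a1 promoter printed above, the letters TGGGAA directly follow the marked CCCAGGGG. Promoters of chromosome 18, which holds 3 of the 197 loci, were not used here, and a match describes letters only.

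**Figure D1:**
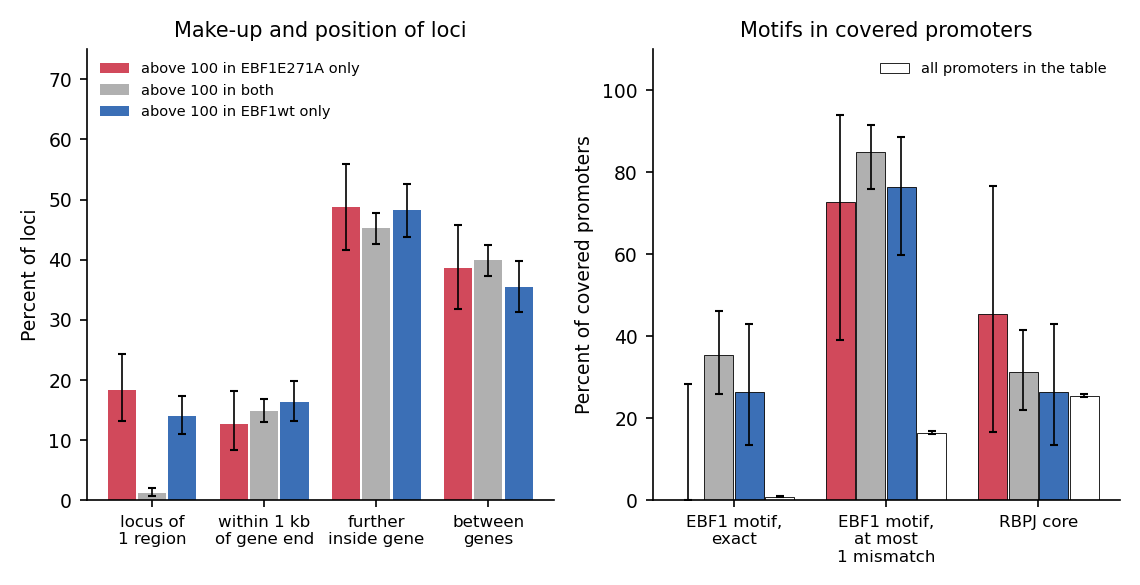
Left, percent of loci (y axis) given by a single region, and percent by position, for loci above 100 in EBF1E271A only (red, 197), in both (grey, 1454) and in EBF1wt only (blue, 508). Right, percent of covered promoters (y axis) with the EBF1 palindrome, the palindrome with at most 1 mismatch or the RBPJ core, in the same colours, with all promoters of the table in white. Bars carry exact binomial 95% intervals; the red bar is absent at the exact palindrome because 0 of 11 promoters held it.

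Most loci of the group lay close to the threshold in both libraries. Over the 339 regions the EBF1wt values ran from 6.32 to 99.6 with a median of 87.0, and the EBF1E271A values from 100.6 to 206.2 with a median of 110.7. Before scaling these were 4 to 63 counts for EBF1wt and 159 to 326 for EBF1E271A. The median ratio was 1.34, with an upper quartile of 1.55, against a median of 0.901 over all regions. Of the 339 regions, 83 had a ratio below 1.2, and 155 had an EBF1E271A value below 110.

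At least a 1.5-fold ratio, on the log2 scale after a pseudocount of 1, was reached by 95 of the 339 regions (56 loci) and by 2.96% of all regions. For a 2-fold ratio the numbers were 24 regions (18 loci) and 0.632%. An exact binomial (Clopper-Pearson) 95% interval above 1 was found for 146 of the 339 regions and for 8.21% of all regions. The rule used this contrast, so nothing is read from these counts. The intervals cover counting error at most, and less than that if the counts include PCR copies, which are not separate molecules. The regions not counted above had intervals that held 1. The highest ratio with such an interval was 1.38, and the lowest with an interval above 1 was 1.36. All of these ratios rest on the spike-in scale, and scaling both libraries to equal sums over the regions raised each log2 ratio by about 0.22.

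At the edges of the group, neighbouring values differed by a single count. Just inside, 16 regions had the lowest EBF1E271A value, 100.6, among them regions 80.5 kb from Chst15 (98.0 for EBF1wt) and inside Cyp4f18 (98.0). On the other side, 18 regions had the highest EBF1wt value, 99.6, among them one inside A630001G21Rik (127.8 for EBF1E271A) and one 534 bp from Tbx19 (124.6). Just outside, 20 regions above 100 in both had an EBF1wt value of 101.2, among them one near Neurl1b (173.9 for EBF1E271A), one inside the integrin gene Itga9 (167.6) and a second region of the A630001G21Rik locus (128.4). No deposited region was at or below 100 in both libraries. The threshold also ran through 19 loci, in which a region of the group overlapped a region above 100 in both (18) or in EBF1wt alone (1).

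**Figure D2:**
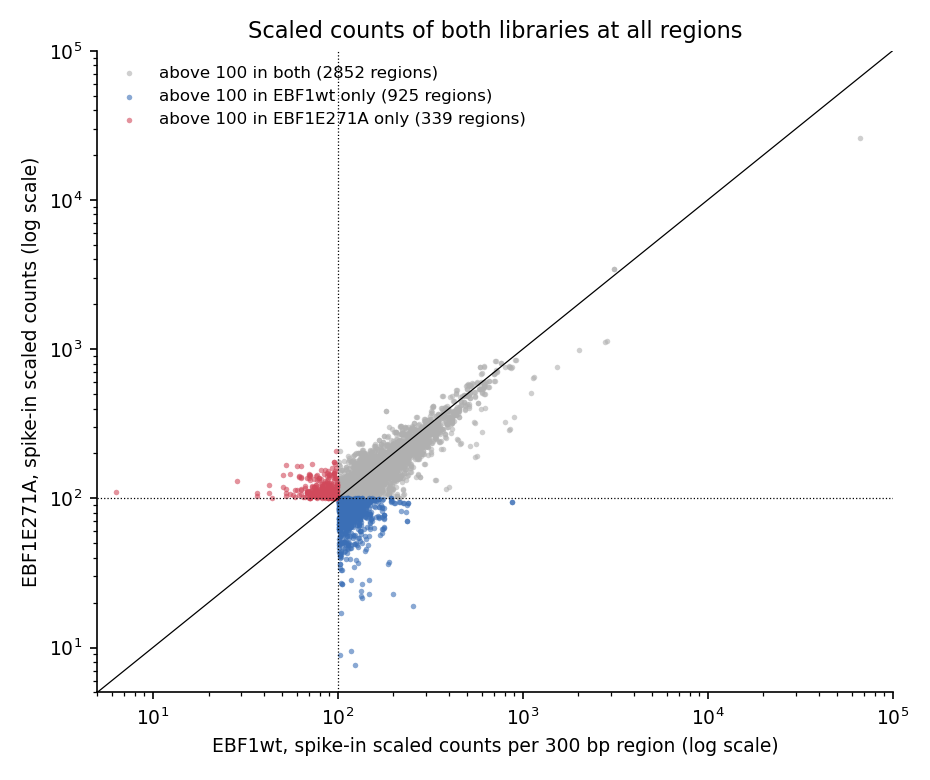
Scaled counts per 300 bp region of the EBF1wt library (x axis, log scale) against the EBF1E271A library (y axis, log scale) for all 4116 regions; each point is 1 region, dotted lines mark 100 and the diagonal marks a ratio of 1. The 339 regions of the group (red) fill the upper left field and mostly sit near the crossing of the dotted lines, with the region inside Zfhx3 far to the left.

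The highest ratios mostly came from loci with low EBF1wt values rather than from the highest EBF1E271A values. The highest lay inside Zfhx3, a zinc finger homeobox gene (chromosome 8, 108317773 to 108318072), with 6.32 for EBF1wt, only 4 counts, and 109.4 for EBF1E271A, a ratio of 17.3 (95% interval 6.64 to 64.2). It was followed by a locus of chromosome 10 (19232861 to 19233160) that had no coding gene within 100 kb, where 28.5 and 129.7 gave 4.56 (2.81 to 7.84). Inside Hs3st1, which encodes a heparan sulfate sulfotransferase (chromosome 5, 39631022 to 39631321), the values were 52.2 and 167.6, a ratio of 3.21 (2.23 to 4.76). In these loci the EBF1wt value varied more than the EBF1E271A value.

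The next 9 loci by ratio lay between 2.99 and 2.34. They were 82.3 kb from Tmem74 (2.99), inside 1700113H08Rik (2.87), inside Ulk4, a gene of the ULK kinase family (2.85), inside Sugct, which encodes a glutarate CoA-transferase (2.81), and inside Pttg1ip (2.62). A locus of chromosome 17 (81902025 to 81902324) had 63.2 and 164.5 (2.60) and one on chromosome 10 (8071297 to 8071596) had 50.6 and 118.3 (2.34), both without a protein-coding gene within 100 kb. The remaining pair lay inside the kainate receptor subunit gene Grik4 (2.53) and inside Inpp4b, which encodes a phosphoinositide phosphatase (72.7 and 170.1, 2.34). Each of these intervals had a lower bound above 1.5, the lowest being 1.60 at the chromosome 10 locus.

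A different set of loci led by EBF1E271A value. The highest value, 206.2, lay near Mex3a, which encodes an RNA-binding protein, at 9.85 kb (chromosome 3, 88521951 to 88522250) against 98.0 for EBF1wt, a ratio of 2.10 (1.60 to 2.81). Next came a locus inside Chst11, a chondroitin sulfotransferase gene (chromosome 10, 83181823 to 83182122; 94.9 and 175.2; 1.85, 1.39 to 2.48). A locus 33.8 kb from Neurl1b, which encodes a ubiquitin ligase acting on Notch ligands, had 96.4 and 170.8 (1.77, 1.34 to 2.38). The other high values were those in Inpp4b and Hs3st1 and at the chromosome 17 locus given above, inside the membrane skeleton gene Epb41l2 (160.7), Tcf20 (153.1), Prag1 (151.8), Dera (148.0) and the focal adhesion gene Tns3 (146.7), and near the cation channel gene Trpc6 (146.7). Of these 12 loci, 3 (Inpp4b, Hs3st1 and the chromosome 17 locus) were also among the 12 highest ratios. In the loci of Mex3a, Neurl1b and Prag1 the overlapping second region was above 100 in both libraries.

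**Figure D3:**
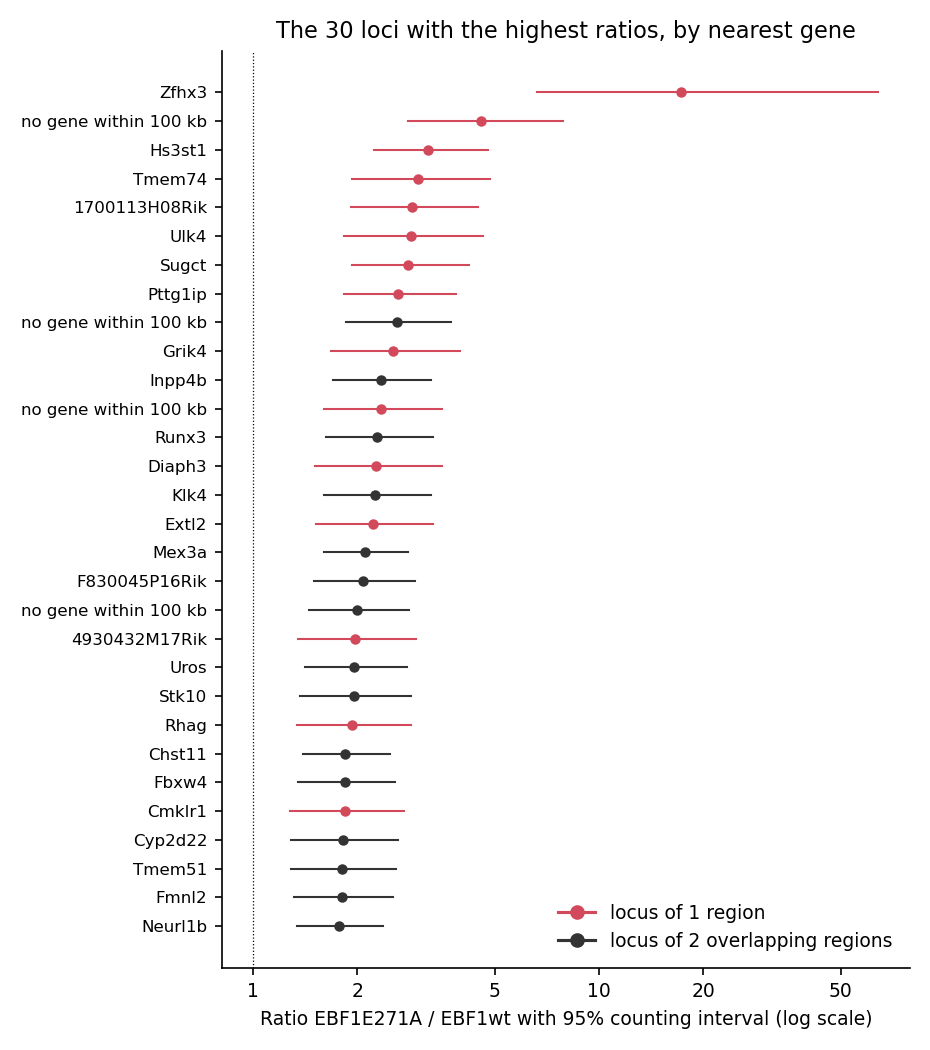
Ratio of EBF1E271A over EBF1wt (x axis, log scale) with its exact binomial 95% counting interval for the 30 loci with the highest ratios, named by the nearest protein-coding gene (y axis); red loci consist of 1 region and black loci of 2 overlapping regions. Loci of 1 region fill the first 8 places, and Zfhx3 stands apart with 17.3 and the widest interval.

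Loci given by only 1 region were common in the group and held most of the highest ratios. The deposited list gives most loci as 2 overlapping regions, offset in this group by a median of 17 bp, and the sources used here do not say how the pairs arose. Of the 197 loci, 36 consisted of 1 region (18.3%, 13.1 to 24.4%), against 19 of 1454 loci above 100 in both (1.31%, 0.789 to 2.03%) and 71 of 508 above 100 in EBF1wt alone (14.0%, 11.1 to 17.3%). The interval of the group lies above that of the loci above 100 in both and overlaps that of the loci above 100 in EBF1wt alone. The list held no region at or below 100 in both libraries, so a second region with such values would be absent. These shares thus depend on the values that the rule used, and nothing is read from the contrast, which was not tested. Among the 12 highest ratios 10 loci were of 1 region, the exceptions being the chromosome 17 locus and Inpp4b. Of the 18 loci with at least a 2-fold ratio, 12 were of 1 region and 6 of 2 regions, namely those 2 and the loci near Runx3, Klk4, Mex3a and F830045P16Rik. The median EBF1wt value was 70.4 in the 36 loci and 88.5 in the 161 loci of 2 regions, and the median EBF1E271A value was 103.7 and 112.6.

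By position, shares were close to those of the other loci. No more than 1 kb from the start or end of a coding gene lay 25 of the 197 loci (12.7%, 8.38 to 18.2%), against 14.9% of the loci above 100 in both and 16.3% of those above 100 in EBF1wt alone. Further inside genes lay 96 (48.7%, against 45.3% and 48.2%), and between genes 76 (38.6%, against 39.9% and 35.4%). Ratios were alike over the positions, with medians of 1.33 for gene ends, 1.33 for gene interiors and 1.36 for the rest. A protein-coding gene lay within 100 kb of 184 of the 197 loci, and 13 loci had none.

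At gene ends, the highest ratio was that at Klk4, 53 bp before the start site (61.7 and 139.2; 2.26, 1.60 to 3.26). Next were loci 343 bp from Fbxw4, which encodes an F-box protein (77.5 and 142.9; 1.85, 1.35 to 2.57), and 391 bp from the cytochrome P450 gene Cyp2d22 (63.2 and 115.1; 1.82, 1.29 to 2.63). At the other promoters printed above the values were 58.5 and 101.8 for Ints3 (1.74, 1.21 to 2.56), 94.9 and 137.9 for Aldh6a1 (1.45, 1.09 to 1.97), 98.0 and 137.3 for Ifitm1 (1.40, 1.05 to 1.89), and 90.1 and 120.2 for Ptpn6 (1.33, 0.987 to 1.83). Of these 7 loci, only that of Ptpn6 had an interval that held 1. At the comparison promoters the values were 581.8 and 542.7 for Mphosph8 (0.933) and 493.3 and 492.1 for Wdr93 (0.998).

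Loci of the group seldom shared a gene. The 184 loci with a gene belonged to 183 genes, and only Chst11 had 2 of them, the second (chromosome 10, 82992139 to 82992438) with 90.1 and 117.6 (1.31, 0.965 to 1.79). For the loci above 100 in EBF1wt alone, a larger set, 30 of 437 genes (6.86%) had 2 or more. The median distance to the next locus of any kind was 182.1 kb, against 100.1 kb for loci above 100 in both and 107.6 kb for those above 100 in EBF1wt alone. The share with another locus within 50 kb was 29.4% (23.2 to 36.3%), against 35.8% and 32.9%.

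**Figure D4:**
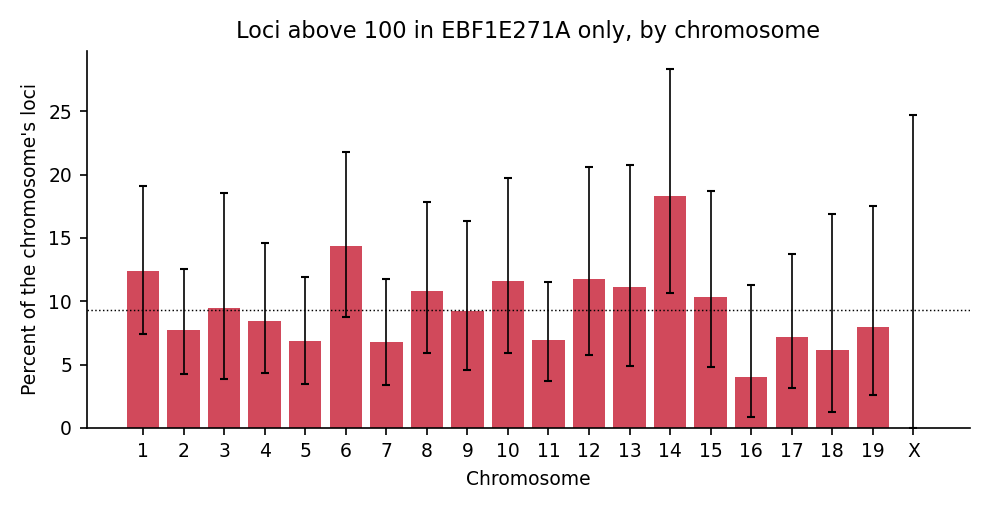
Percent of each chromosome's loci (y axis) that were above 100 in EBF1E271A only, by chromosome (x axis), with exact binomial 95% intervals; the dotted line marks the share over the chromosomes shown. Chromosome 14 is highest with 15 of 82 loci (18.3%, 10.6 to 28.4%), the only interval above the line, and chromosome X had 0 of 13. Chromosome 14 was picked as the highest of all those shown, the intervals are not adjusted for their number, and no difference was tested.

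Some genes of the group also had loci outside it. Of the 183 genes, 52 (28.4%) also had a locus outside the group, 41 of them a locus above 100 in both and 20 a locus above 100 in EBF1wt alone. These gave 82 entries, in which a Man1c1 locus is entered under each of its classes, with a median ratio of 0.890. Of these entries, 60 had a ratio below 1. Loci of the group, all above 1 by the rule, were left out of them. For comparison, the median was 0.932 over all loci above 100 in both and 0.683 over those above 100 in EBF1wt alone. Most loci of either class thus had ratios below 1 whatever their gene, so nothing is read from the count of 60. Zmiz1, which encodes a coregulator of transcription, had the most other loci, with 5. Its locus in the group had 88.5 and 112.0 (1.26, 0.931 to 1.74), and the others had ratios from 0.605 to 1.28. Hip1 and Rad51b held the lowest and the highest ratio of the 82 entries, so they are extremes and not typical genes. Inside Hip1, a huntingtin-interacting protein gene on chromosome 5, the locus of the group had 98.0 and 115.7 (1.18, 0.881 to 1.60). The 3 other loci in Hip1 had 147.0 and 55.7, 143.9 and 63.9, and 444.3 and 365.0. A locus 49.4 kb from the recombination gene Rad51b had 87.0 and 106.3 (1.22, 0.896 to 1.69). A stronger locus inside Rad51b had 181.8 and 384.6 (2.11, 1.73 to 2.60), and its other loci had ratios of 1.14 and 0.971. Opposite sides of the threshold were thus found within Hip1, although the interval of its locus in the group held 1.

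Loci of the group at genes of the preset lists are given next. The share of a list's loci is set beside that over all loci, and no difference was tested. Of the 10 gene lists, 6 had a locus in the group, with 12 loci in all. B lineage genes gave 3 of their 25 loci (12%), against 9.29% over all loci. These lay inside Ebf1 itself (98.0 and 112.6; 1.15, 0.856 to 1.56), inside the E protein gene Tcf4 (88.5 and 114.5; 1.29, 0.953 to 1.78) and inside Pou2f2, which encodes the octamer factor OCT2 (91.7 and 115.1; 1.26, 0.929 to 1.72). All 3 intervals held 1. The pre-B cell receptor and signalling list gave 2 of 26 loci (7.69%), that at Ptpn6 and one 44.2 kb from Nfatc1, a calcium-regulated factor gene (99.6 and 122.7; 1.23, 0.923 to 1.66).

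T lineage genes gave 2 of 6 loci (33.3%) and Notch pathway genes 2 of 13 (15.4%), against 9.29% over all loci. With so few loci on these lists, nothing is read from their shares. The lists share 1 of these loci. The locus 3.99 kb from Runx3, which encodes a factor of cytotoxic T cells (chromosome 4, 135181826 to 135182125), had 61.7 and 141.0, a ratio of 2.29 (1.62 to 3.3). That 19.4 kb from Il2ra, the interleukin-2 receptor alpha chain gene, which is on both lists, had 85.4 and 100.6 (1.18, 0.860 to 1.64), and the second Notch locus was that near Neurl1b. Of the 12 listed loci, only those near Runx3, Neurl1b and Dock10 had intervals above 1, against 83 of all 197 loci of the group (42.1%). The rule used these values, so nothing is read from that contrast. In the loci of Ebf1, Nfatc1, Neurl1b and Sema7a the overlapping second region was above 100 in both libraries. Regulators of small GTPases gave 3 of 18 loci (16.7%), near Dock10 (74.3 and 106.3; 1.43, 1.03 to 2.02), inside Prex1 (1.15) and inside Iqsec1 (1.38). Adhesion and guidance genes gave 1 of 26 (3.85%), near Sema7a (1.16). Myeloid and innate lymphoid (9 loci), Wnt (7), stroma and adipocyte (4) and cell cycle and survival genes (10) gave 0.

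Some further loci are given as examples; they were picked by gene name after the values were seen, from no fixed list, and other genes of the same kinds are in the group. The values were 90.1 and 120.2 at 16.0 kb from the chemokine receptor gene Ccr7 (1.33, 0.987 to 1.83), and 82.2 and 103.7 at 73.7 kb from Cxcr4, which encodes the receptor that keeps progenitors in the bone marrow (1.26, 0.918 to 1.76). At Il10ra and Il21r, which encode cytokine receptor chains, ratios were 1.16 and 1.1. At Flt3l, which encodes the ligand of the FLT3 receptor, the pair of regions had ratios of 1.06 and 1.2. Inside Cmklr1, a chemoattractant receptor gene, a locus of 1 region had 56.9 and 105.0 (1.84, 1.28 to 2.72). Inside Relt, which encodes a receptor of the TNF receptor family, they were 87.0 and 127.1 (1.46, 1.08 to 2.01).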

How the data were processed

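The series has 3 libraries. Regions were described for both ChIP libraries; input values were not used here. The deposited values are a signal, named scaled counts in the file headers, and per the labels the authors normalized with human chromatin. The submitters' processing notes list deepTools (3.3.2, 3.5.0), bedtools 2.27.0, MACS2 2.2.7.1, Bowtie2 2.3.5.1, SAMtools 1.10 and the build GRCm38. The sources used here do not say how regions were called or how scale factors were set.

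Values were whole multiples of 1.5811 (EBF1wt) and 0.6325 (EBF1E271A), which gave the unscaled counts (515897 and 1105818 over all regions). No source states these factors. Ratio intervals are exact binomial ones of these counts and assume scale factors without error. They were run on simulated counts made under the same assumptions, which cannot show error from scaling, PCR copies or differences between replicates. With 1 library per group, no test between conditions was possible. A locus is given by its member region of higher mean value, and genes are the nearest of 21900 protein-coding RefSeq gene bodies (GRCm38.p6) within 100 kb of the centre. Named were the 12 loci of highest ratio, the 12 of highest EBF1E271A value, gene-end loci among the 30 highest ratios, genes with several loci, genes on lists (10 lists, 336 genes) and regions beside the thresholds. Members, lists and rules were chosen with earlier results of these data known. The analysis used Python 3.11.15, pandas 2.3.3 and SciPy 1.17.1.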

Additional observations from a re-analysis of the deposited data

How the results depend on the processing

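The counts depend on the scale and the threshold. With both libraries at equal sums, the rule gave 513 regions, including all 339, and without the region of highest value in the sums 432. Over the same 339 regions, equal sums gave a median log2 ratio of 0.64 in place of 0.42, 193 regions at least 1.5-fold and 50 at least 2-fold higher, and 283 with an interval above 1. Requiring an EBF1E271A value of at least 110 left 184 regions, and an EBF1wt value of at most 90 left 215. Counting each locus once gave 197 loci, 56 of them at least 1.5-fold higher and 83 with an interval above 1. With 99% intervals 94 regions lay above 1. Over loci of 2 regions only, a setting chosen after seeing the data, 39 were at least 1.5-fold and 6 at least 2-fold higher. A gene lay within 10 kb of 67.3% and within 50 kb of 84.4% of the regions, against 92.9% within 100 kb. The other settings run stayed within the interval of the value or, for counts, within 1.5 times. No paired analysis was possible because each group has 1 library. With 4 to 63 EBF1wt counts, ratios below 1.36 were not resolved from 1.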

Other observations

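Loci of the group also lay inside genes that do not encode proteins. The centre of 29 of the 197 loci (14.7%, exact binomial 95% interval 10.1 to 20.5%) fell inside a long noncoding RNA gene, against 13.1% of the loci above 100 in both libraries and 10.6% of those above 100 in EBF1wt alone. One locus fell inside a pseudogene, and 0 of 197 inside a microRNA gene, with an interval from 0 to 1.86%. The promoter of Dleu2, a long noncoding RNA gene on chromosome 14, was among the 11 covered promoters. Its region had a ratio of 1.36, with an interval (0.979 to 1.92) that held 1.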
